A study of Mus musculus with 9 samples.

Results

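The genes described here are Apoe, Lpl, Abca1, Lipa, Cd36, Fabp5, Trem2, Gpnmb and Pltp, 9 of the 31053 genes counted, taken by their symbols as a set of lipid handling genes of macrophages. They were measured in CD11b+ cells of the intestinal lamina propria by single cell RNA sequencing with a 10x Genomics 3′ kit, in which each unique molecular identifier (UMI) stands for 1 captured RNA molecule. The 9 libraries came from male C57BL/6 mice 7 to 8 weeks old. They comprised colon of specific pathogen free (SPF) mice (2 libraries), colon of germ-free mice (2), small intestine of untreated mice (2), colon of mice given pan-antibiotics (1), colon of mice given 2.5% dextran sodium sulfate (DSS) for 7 days and then regular water (1), and colon of DSS-treated mice labelled Nlrc4 deficient (1). Antibiotics were given in the drinking water, with ampicillin at 1 g/L, vancomycin at 0.5 g/L, neomycin at 1 g/L and metronidazole at 1 g/L. All mice but those of the last group were wild type. The labels do not say whether the 2 libraries of a group came from separate mice. The p-values below therefore refer to libraries and cannot be taken to cover the spread between mice.

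Macrophages clear dying cells and lipoproteins, and these genes cover the path that the lipid then takes. Lpl (lipoprotein lipase) cleaves triglyceride in lipoproteins, and Cd36 is a scavenger receptor that takes up fatty acids and oxidised lipoproteins. Lipa (lysosomal acid lipase) frees cholesterol and fatty acids in lysosomes, and Fabp5 binds fatty acids in the cytosol. Abca1 exports cholesterol across the plasma membrane to lipid-poor apolipoproteins, Apoe is a secreted apolipoprotein that accepts it, and Pltp transfers phospholipids between lipoproteins. Trem2 is a lipid-sensing surface receptor that signals through Tyrobp, and Gpnmb is a transmembrane glycoprotein known from lysosomal stress and lipid-laden macrophages. Several of these genes, Abca1, Apoe, Lpl and Pltp among them, are textbook targets of the liver X receptors (LXR), and the set as a whole is often read as a sign of lipid-loaded macrophages.

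Cells were assigned to 13 classes from 96 marker genes, none of them among the 9 described here, and the names macrophage-like, monocyte-like and so on rest on RNA alone. The files hold 37123 barcodes, of which 31759 had at most 15% mitochondrial UMIs and at least 200 genes, and 79.4% of these received a class. Libraries held 13243317 to 64453601 UMIs, and no 2 libraries shared more than 20 cell barcodes. Macrophage-like cells numbered 111 to 1002 per library (3359 in all) and monocyte-like cells 18 to 1651 (2880 in all). All 10 macrophage markers, including C1qa, Csf1r and Adgre1, had UMIs in the macrophage-like cells of every library. The class was assigned by these markers, so their presence is no separate check of it. Although the cells were labelled CD11b+, classes that should lack it were also present, such as 4395 B cell-like and 2901 plasma cell-like cells. In the library labelled Nlrc4 deficient, Nlrc4 stood at 34.5 counts per 1000000 UMIs of the class (CPM) in macrophage-like cells, the highest of the 9 libraries. The deleted part of the gene is not given, and a 3′ tag outside it checks nothing.

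All 9 genes are protein coding on GRCm38 (mm10), and the files and the GENCODE annotation give them the same identifiers. Apoe (ENSMUSG00000002985) lies on chromosome 7 from 19696109 to 19699188, Abca1 (ENSMUSG00000015243) on chromosome 4 from 53030787 to 53159895, and Pltp (ENSMUSG00000017754) on chromosome 2 from 164839518 to 164857711, each on the minus strand. Lpl (ENSMUSG00000015568) lies on chromosome 8 from 68880491 to 68907448 on the plus strand, Cd36 (ENSMUSG00000002944) on chromosome 5 from 17781690 to 17888801 on the minus strand, and Lipa (ENSMUSG00000024781) on chromosome 19 from 34492318 to 34527474 on the minus strand. Fabp5 (ENSMUSG00000027533) lies on chromosome 3 from 10012548 to 10016607, Trem2 (ENSMUSG00000023992) on chromosome 17 from 48346401 to 48354147, and Gpnmb (ENSMUSG00000029816) on chromosome 6 from 49036546 to 49070929, each on the plus strand. When the last 300 bases of the coding transcripts were aligned to all GENCODE transcripts, only Pltp met another gene at 95% identity over at least 90 bases. That gene was Ctsa, which overlaps the 3′ end of Pltp on the opposite strand, and this library type keeps the strand.

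The promoters of the genes with the largest difference between macrophage-like and monocyte-like cells, Apoe, Pltp and Abca1, are shown as the 250 bases before the transcription start (RefSeq, GRCm38.p6, all on the minus strand, 5′ to 3′). They span chr7:19699189-19699438, chr2:164857709-164857958 and chr4:53159896-53160145. Capitals mark CACGTG, the E-box at the core of the lysosomal CLEAR element, and TATAAA, the TATA box.
Apoe: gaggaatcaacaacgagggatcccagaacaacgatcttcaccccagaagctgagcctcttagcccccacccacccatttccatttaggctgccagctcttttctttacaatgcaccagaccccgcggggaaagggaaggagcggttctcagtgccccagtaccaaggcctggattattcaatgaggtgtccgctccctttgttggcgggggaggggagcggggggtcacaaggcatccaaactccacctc
Pltp: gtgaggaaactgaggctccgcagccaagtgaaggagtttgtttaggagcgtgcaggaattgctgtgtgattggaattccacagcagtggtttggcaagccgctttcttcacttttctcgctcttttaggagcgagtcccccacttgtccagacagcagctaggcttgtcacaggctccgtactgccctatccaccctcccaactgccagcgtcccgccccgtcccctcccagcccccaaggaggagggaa
Abca1: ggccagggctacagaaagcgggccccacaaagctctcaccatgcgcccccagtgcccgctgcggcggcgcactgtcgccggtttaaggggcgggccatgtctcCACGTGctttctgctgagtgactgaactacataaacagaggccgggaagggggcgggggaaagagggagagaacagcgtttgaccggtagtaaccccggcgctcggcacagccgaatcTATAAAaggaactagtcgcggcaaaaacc
Promoters were listed for 7 of the 9 genes. Abca1 had 1 match to CACGTG, a palindrome found in 6.02% of 32817 promoter windows of this length, and 1 to TATAAA (sense strand only, 7.60% of windows). Cd36 and Trem2 had 1 match each to AGGTCA on either strand, the core of nuclear receptor sites (14.0% of windows). None of the 7 genes had a match to the PU.1 motif GAGGAAGT on either strand (2.44% of windows), and the listed Apoe starts downstream of the one shown held 1 TATAAA.

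The first question was in which cells these RNAs lie. Macrophage-like cells held 64.8% of all Apoe UMIs of the kept cells, and 93.8% of these cells had at least 1 Apoe UMI. Apoe stood at 2969 to 12618 CPM in macrophage-like cells, with a median of 7456 over 9 libraries. It followed at a median of 1095 CPM in monocyte-like cells and 860 CPM in B cell-like cells, and at 25.3 CPM in dendritic-like cells. The Apoe levels of macrophage-like cells lay above those of every other ordered class in all libraries.

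The Apoe signal of B cell-like cells ran from 741 to 1212 CPM, against 9.34 to 208 CPM in T cell-like cells, so that these groups did not overlap. How many of all genes separate them was not counted. After each cell was thinned to 1000 UMIs, 38.9% of B cell-like cells (95% exact binomial interval 37.5 to 40.4) and 4.17% of T cell-like cells (3.42 to 5.02) had an Apoe UMI, against 59.9% and 13.7% unthinned at median depths of 3307 and 4756.5 UMIs. In dendritic-like cells the thinned share was 2.84%. C1qa, a marker of macrophages, stood at 6.12 to 19.4 CPM in B cell-like and 2.67 to 63.9 CPM in T cell-like cells. Because C1qa helped to assign the classes, its level cannot tell the source of these Apoe UMIs, which was not tested. This pair of classes was chosen after its values were seen.

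Abca1 was also highest in macrophage-like cells, with a median of 379 CPM (242 to 592). Neutrophil-like cells (149 CPM), monocyte-like cells (141 CPM), B cell-like cells (139 CPM) and eosinophil-like cells (120 CPM) followed close to each other, while T cell-like cells held 14.5 CPM and dendritic-like cells 8.17 CPM. Lipa was spread more evenly, at 116 CPM in macrophage-like cells and 51.5 to 67.9 CPM in neutrophil-, fibroblast-, dendritic- and monocyte-like cells.

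Pltp and Lpl were shared with stroma. The Pltp median was 277 CPM in fibroblast-like and 259 CPM in macrophage-like cells, and the next class, dendritic-like cells, held 54.9 CPM. Lpl was led by fibroblast-like cells at 364 CPM, followed by monocyte-like cells at 79.5 CPM and macrophage-like cells at 51.9 CPM. In the same order Fabp5 was led by dendritic-like cells (157 CPM), followed by monocyte-like (112 CPM), macrophage-like (87.1 CPM) and neutrophil-like cells (77.1 CPM).

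Trem2 was low and narrow, at medians of 30.4 CPM in macrophage-like and 24.3 CPM in monocyte-like cells and 7.48 CPM in neutrophil-like cells, with a median of 0.208 CPM or less in the other 8 classes. Gpnmb stood at 38.1 CPM in macrophage-like and 33.1 CPM in monocyte-like cells, plasma cell-like cells held 17.4 CPM (9.44 to 24.7) and fibroblast-like cells 17.1 CPM. Those plasma cell-like cells were deep, at a median of 16626 UMIs, and held 27.5% of all Gpnmb UMIs. Cd36 stood at 65.2 CPM in macrophage-like, 41.0 CPM in dendritic-like and 17.5 CPM in monocyte-like cells. Endothelial-like cells, too few to be ordered (143 in all), held more Cd36, at 115 to 706 CPM in the 5 libraries with at least 20 of them.

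**Figure D1:**
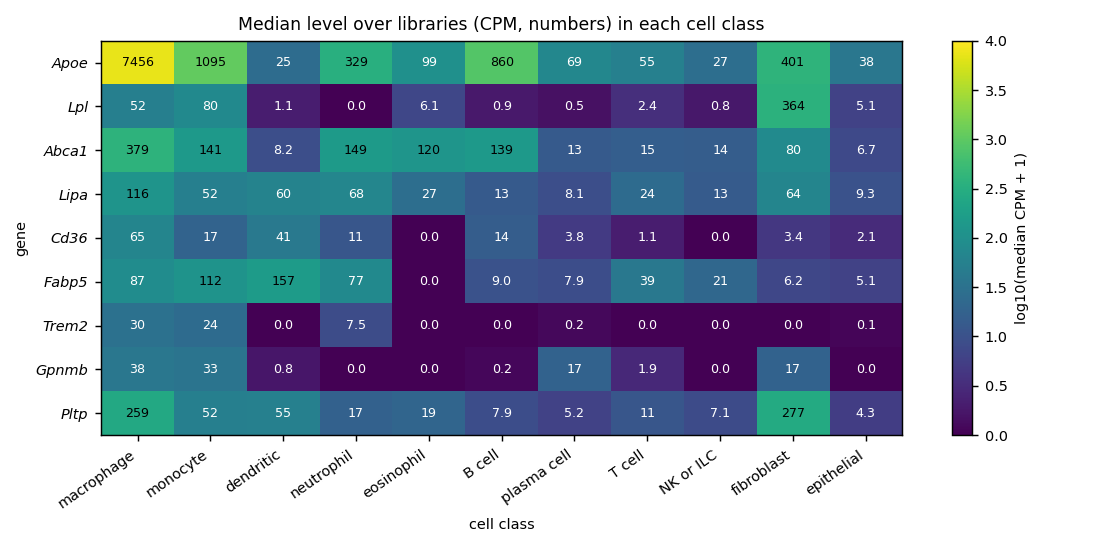
Median level of each gene (rows) in 11 cell classes (columns) over the libraries with at least 20 cells of the class, in CPM; colour is log10(median CPM + 1). Apoe and Abca1 are highest in macrophage-like cells, Lpl and Pltp in fibroblast-like cells and Fabp5 in dendritic-like cells.

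The order of the classes was tested between neighbours, with paired differences of log2(CPM + 5) over the libraries that held at least 20 cells of both. None of the 90 neighbour pairs passed after Benjamini-Hochberg adjustment by the exact two-sided sign-flip permutation test. The smallest adjusted p was 0.0781, and with 5 to 9 libraries the smallest p that this test can give is 0.00391 to 0.0625. Among the steps at that limit were macrophage-like over neutrophil-like cells for Abca1 (mean difference 1.36 ± 0.54 SD, log2, n = 9 libraries, exact permutation p = 0.00391) and for Lipa (0.85 ± 0.54). By contrast, macrophage-like and fibroblast-like cells did not differ in Pltp beyond their spread (fibroblast-like minus macrophage-like -0.10 ± 0.48, n = 8), and macrophage-like and monocyte-like cells did not in Trem2 (0.04 ± 0.64, n = 8).

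Likeness was measured by Pearson's r of log2(CPM + 5) over 97 class-by-library sums, which share libraries and depth, against 8989 genes. The genes nearest to Apoe were Lgmn (0.81), Tlr7 (0.79) and Fcgr2b (0.78), those nearest to Abca1 were Atp6ap1 (0.79), Atp6v1h (0.78) and Mpp1 (0.77), and those nearest to Pltp were Pdlim4 (0.90), Acvrl1 (0.88) and Axl (0.87). Lpl was most like Lrp1 (0.83), Pros1 (0.80) and Fap (0.79), and Lipa most like Tnfaip2 (0.83), Itpripl2 (0.81) and Psap (0.80). For Trem2 the nearest were Msr1 (0.87), Serpinb8 (0.86) and F13a1 (0.85). Cd36 came nearest to Rasa4, Lmo2 and Sema6b (0.70 each), Fabp5 to Cd68 (0.75), Bcl2a1d (0.72) and Bax (0.71), and Gpnmb to Itgb5 (0.71), Abca9 (0.69) and Fam20c (0.67).

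The next question was how the genes differ between gut macrophages and the monocytes that replace them. In macrophage-like against monocyte-like cells of the same library (8 libraries), 6 of the 9 genes were higher and none was lower by edgeR's quasi-likelihood test. The background was 13.3% of 9321 genes higher and 13.1% lower, or 26.4% in either direction. The set was chosen as genes of macrophages, with earlier results of these data known, so this count is no independent test. The library entered the fit as a block. The median log2 fold change was 1.07 over the 9 genes and 0.03 over all genes tested.

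The genes of lipid export differed most. Apoe in monocyte-like cells was 2274 and 922 CPM in SPF colon, 985 in the second germ-free library, 2663 and 1384 in small intestine, 858 with antibiotics, 1204 with DSS and 978 in the library labelled Nlrc4 deficient. In macrophage-like cells of these libraries it was 6831, 7456, 9514, 10018, 8126, 6692, 3967 and 2969 CPM. Even the lowest macrophage-like value lay above the highest monocyte-like one, and the fitted difference was 2.30 ± 0.19 (log2, SE, adjusted p = 5.8e-07). How many of all genes separate the classes in this way was not counted. C1qa in monocyte-like cells stood at 0 to 70.8 CPM, against 1460 to 4169 CPM in macrophage-like cells. As C1qa is one of the markers that assigned the classes, the gate itself favours this gap.

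Pltp ran from 22.8 to 118 CPM in monocyte-like cells of these libraries and from 153 to 345 CPM in macrophage-like cells, also without overlap, with a difference of 2.36 ± 0.26 (log2, SE, adjusted p = 9.8e-06). As for Apoe, the share of all genes without overlap was not counted. A stricter gate, which asked for a lead of 0.75 in the marker score and 3 detected markers, gave 3.29 for Pltp. Abca1 ran from 100 to 251 CPM and from 242 to 592 CPM, and only the monocyte-like cells of the antibiotic library reached above the lowest macrophage-like value. Its difference was 1.25 ± 0.13 (adjusted p = 4.9e-06).

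Of the uptake and hydrolysis genes, Lipa was higher in macrophage-like cells by 1.07 ± 0.16 (log2, SE, adjusted p = 0.000163), with 31.9 to 85.9 CPM in monocyte-like and 76.9 to 189 CPM in macrophage-like cells, an overlap across libraries but not within any 1 of the 8. Cd36 was higher by 1.14 ± 0.28 (adjusted p = 0.00669) and rose in 7 of 8 libraries. The exception was the second small intestine library, where 29 monocyte-like cells held 283 CPM and macrophage-like cells 162 CPM. The Cd36 call was lost without the library block (adjusted p = 0.399) and with only the groups of 2 libraries (adjusted p = 0.0867), and the stricter gate gave 1.88.

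Lpl differed by -0.77 ± 0.39 (log2, SE) and did not pass (adjusted p = 0.164). With no filter on low counts it was called lower (-0.74, adjusted p = 3.0e-05), and with the stricter gate it was -0.077 (adjusted p = 0.876). Its monocyte-like values spread from 8.68 CPM in the library labelled Nlrc4 deficient to 541 CPM in the second small intestine library, and its macrophage-like values from 13.4 to 127 CPM. Within a library, Lpl was higher in monocyte-like cells in 5 of 8 cases. Fabp5 (-0.24 ± 0.21, adjusted p = 0.447) and Trem2 (0.06 ± 0.20, adjusted p = 0.886) did not pass either, and the sign of both turned under some settings.

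Gpnmb was higher in macrophage-like cells by 0.98 ± 0.29 (log2, SE, adjusted p = 0.0197), in 6 of 8 libraries, but this call was fragile. It was lost in DESeq2 (adjusted p = 0.0659) and without the library block (0.226). Leaving out SPF colon replicate 1 (adjusted p = 0.0521), SPF colon replicate 2 (0.0655), DSS colon (0.0655) or germ-free colon replicate 2 (0.0704) also ended it.

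**Figure D2:**
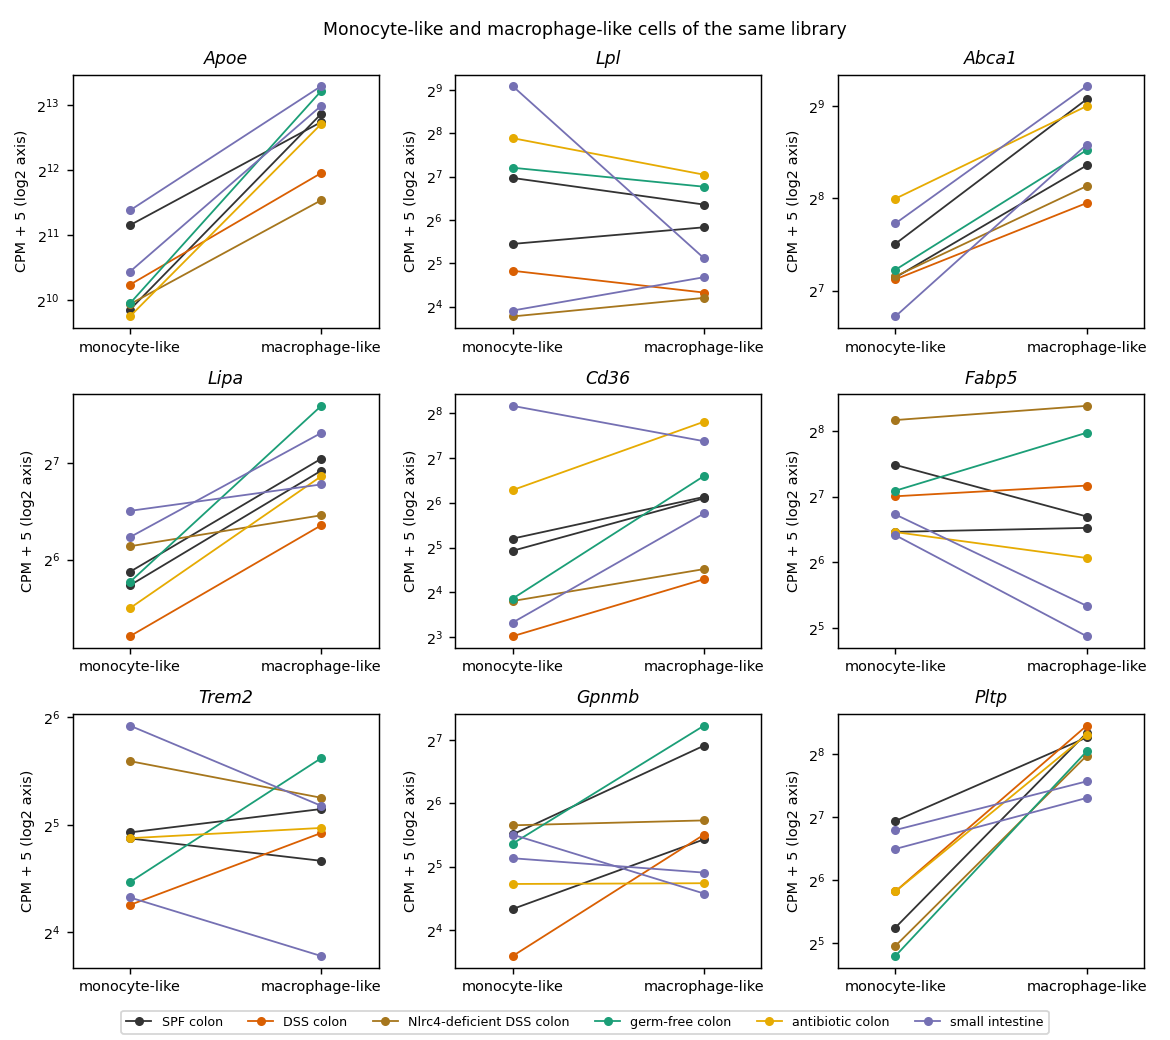
Levels (CPM + 5, log2 axis) in monocyte-like and macrophage-like cells of the same library, joined by a line and coloured by group, for the 8 libraries with at least 20 cells of both classes. Apoe, Pltp, Abca1 and Lipa are higher in macrophage-like cells in all 8 libraries, and Lpl, Fabp5 and Trem2 go both ways. How many of all genes are higher in all 8 was not counted.

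Other genes of the pathways moved in both directions between macrophage-like and monocyte-like cells. Of 12 further efflux and LXR genes tested, 3 were higher and 2 lower, with a median of -0.04 (log2) beside 0.03 over all genes. Nr1h3, which encodes LXRα, was higher by 1.53 ± 0.16 (log2, SE, adjusted p = 5.1e-06) and Mylip, an LXR target that encodes a ubiquitin ligase, by 0.95 ± 0.13. Apoc1, another apolipoprotein, was lower (-1.90 ± 0.35). Of 13 genes in the sterol list, with a median of -0.11, 1 was higher (Hmgcs1, an enzyme of sterol synthesis, 0.42 ± 0.14) and 2 were lower, among them Srebf2, which drives that synthesis (-0.36 ± 0.10).

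Among 10 genes of uptake and fatty acid transport, with a median of -0.14 (log2), none was higher and 2 were lower, the lipoprotein receptors Lrp1 (-0.80 ± 0.12, log2, SE) and Scarb1 (-0.84 ± 0.17). The triglyceride synthases Dgat1 (0.81 ± 0.15) and Dgat2 (-0.97 ± 0.22) went in opposite directions and were the calls among 10 lipid droplet and ester genes (median 0.18). Of 10 fatty acid oxidation genes, 1 was lower (Hadhb, -0.35 ± 0.12) and the median was -0.03. Of 14 lysosomal genes, 6 were higher and 2 lower (median 0.19), and Cd63 (2.43 ± 0.41) and Ctsb (0.46 ± 0.10) were among the higher ones.

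The list of Trem2 signalling also holds the related receptors Trem1, Trem3 and Treml2, so its count is no measure of signalling through Trem2 alone. In it, 5 of 9 genes were lower and none was higher, with a median of -0.84 (log2). They included Tyrobp, the adaptor of Trem2 (-0.84 ± 0.10, log2, SE, adjusted p = 1.3e-05), the related receptor Trem1 (-1.78 ± 0.21) and Plcg2 (-0.90 ± 0.15). Among 8 genes known from lipid-associated macrophages, 4 were higher and 2 lower (median 0.39), with Acp5 (2.42 ± 0.28) and Itgax (2.16 ± 0.30) higher and Lgals3 (-0.96 ± 0.13) lower. Clec7a, a further gene of that list, was not analysed here.

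Set against dendritic-like cells (9 libraries), 8 of the 9 genes were higher in macrophage-like cells and 1 was lower, where 30.0% of 10794 genes were higher and 29.9% lower (60.0% in either direction). Here too the choice of the genes makes the count no independent test. Apoe differed by 7.85 ± 0.28 (log2, SE), Abca1 by 5.64 ± 0.16, Gpnmb by 5.86 ± 0.30 and Lpl by 5.29 ± 0.31 (largest adjusted p of these 1.4e-09, edgeR). The difference of Trem2 (7.50 ± 0.29) rests on 7 Trem2 UMIs in all 4076 dendritic-like cells, so its size depends on the fit. Pltp (2.26 ± 0.25), Lipa (0.93 ± 0.15) and Cd36 (0.81 ± 0.24) differed less, and the call for Cd36 was lost with the stricter gate (adjusted p = 0.0819), which gave 6.64 for Lpl.

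Fabp5 went the other way (-0.85 ± 0.26, log2, SE, adjusted p = 0.0101). In dendritic-like cells it ran from 26.5 and 30.3 CPM in small intestine to 461 CPM with DSS and 475 CPM in the library labelled Nlrc4 deficient. The lowest macrophage-like value, 22.3 CPM in the first germ-free library, stood beside 223 CPM in dendritic-like cells. Its call was lost without the library block (adjusted p = 0.249) and with only the groups of 2 libraries (0.0759).

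Beside these genes, 9 of 10 uptake and fatty acid transport genes were higher in macrophage-like than in dendritic-like cells (median 1.46, log2, against -0.0048 over all genes tested), the scavenger receptor Msr1 most clearly (6.19 ± 0.19, log2, SE). Of 14 lysosomal genes, 12 were higher and none was lower (median 1.01), among them Ctsd (3.71 ± 0.12) and Ctsb (2.98 ± 0.11). Of 11 efflux and LXR genes, 8 were higher and 1 lower (median 1.35), with Nr1h3 at 4.01 ± 0.24. Of 13 genes in the sterol list, 10 were lower and 1 was higher, with a median of -0.86 (log2) and with the lower ones including Srebf2 (-1.47 ± 0.10), Idi1 (-1.70 ± 0.15) and Cyp51 (-0.99 ± 0.12). Lipid droplet genes (6 of 10 higher, 1 lower, median 0.43), fatty acid oxidation genes (3 of 10 higher, 3 lower, median -0.15), Trem2 signalling (4 of 9 higher, 1 lower, median 0.71) and lipid-associated macrophage genes (4 of 8 higher, 1 lower, median 0.40) were less uniform.

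Cd163, Folr2 and Lyve1 are known from long-lived, perivascular and muscularis macrophages. Macrophage-like cells with at least 2 UMIs of these genes were therefore set against those with none. Only the first germ-free library (29 cells with, 185 without) and the second small intestine library (268 with, 641 without) held 20 cells on both sides. Cd36 was the 1 gene of the 9 that passed, where 3.29% of 7803 genes were higher and 3.93% lower (7.23% in either direction).

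Cd36 stood at 432 CPM in cells with these markers and 55.7 CPM in cells without in the germ-free library, and at 275 and 105 CPM in the small intestine library. The difference was 1.91 ± 0.25 (log2, SE, adjusted p = 1.6e-09, edgeR). With 2 libraries and the block this fit left almost no residual degrees of freedom. Its p-values therefore rest mostly on spread shared over all genes. In libraries with 10 to 15 cells with these markers, which the fit did not use, Cd36 was 473 against 52.2 CPM in the first SPF colon library and 249 against 79.6 CPM in the second germ-free library. Pooled over all libraries, the median depth was 4416 UMIs in cells with these markers and 5492 in cells without. This pair mixes libraries, and the part of depth within a library was not tested. Without the library block the call was lost (adjusted p = 0.0726), and DESeq2 called 83 genes in all against 564, Cd36 among them.

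Apoe, by contrast, was 12058 against 12793 CPM in the germ-free and 10716 against 7101 CPM in the small intestine library, a difference that did not pass (0.13 ± 0.22, log2, SE, adjusted p = 0.863). Fabp5, at 18.3 against 21.7 CPM and 19.0 against 44.7 CPM, did not pass either (-1.15 ± 0.43, adjusted p = 0.0903). Trem2 was 128 against 38.7 CPM in the germ-free library and 21.3 against 32.8 CPM in the small intestine library, in opposite directions, as were Lpl (262 against 66.0, and 19.8 against 34.7 CPM) and Gpnmb (79.1 against 20.8, and 6.08 against 23.5 CPM). Of 8 genes known from lipid-associated macrophages, 5 were lower in cells with these markers and none was higher (median -1.31 beside -0.013 over all genes tested), with Acp5 (-1.99 ± 0.26), Itgax (-2.05 ± 0.27) and Cd9 (-1.59 ± 0.25) leading. Nr1h3 was lower too (-2.12 ± 0.43, adjusted p = 0.00017, edgeR), in a list of 10 efflux and LXR genes with 1 higher and 1 lower. The other 6 lists held 0 to 2 calls in a direction. The 9 monocyte markers summed to 170 against 459 CPM in the germ-free and 335 against 815 CPM in the small intestine library, and their part in these results was not tested.

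**Figure D3:**
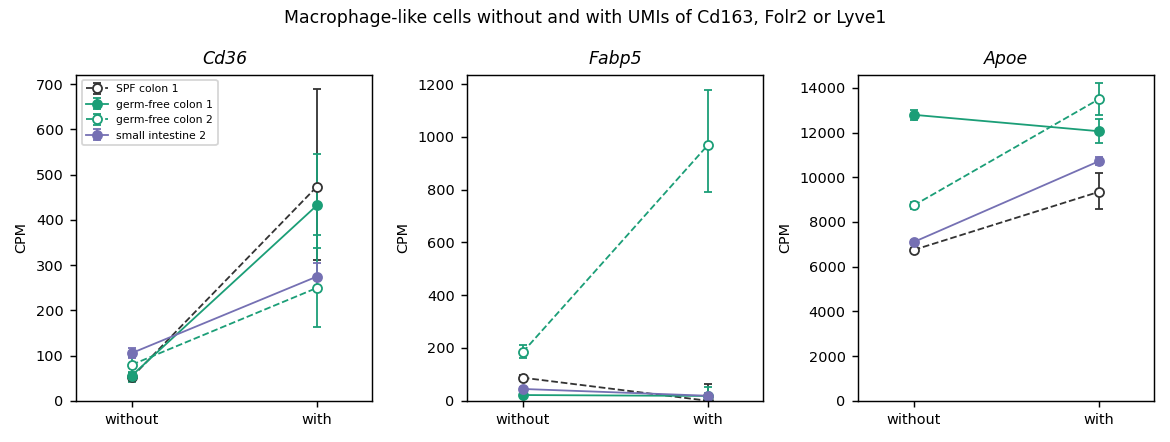
Cd36, Fabp5 and Apoe (CPM, bars are 95% Poisson intervals that cover counting error only) in macrophage-like cells without and with at least 2 UMIs of Cd163, Folr2 or Lyve1. Filled points are the 2 libraries tested and open points libraries with 10 to 15 cells with these markers; Cd36 is higher in cells with them in all 4.

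The third question was whether the microbiota or the site of the gut changes these levels. In macrophage-like cells of germ-free against SPF colon, none of the 9 genes passed, and neither did any of the 8517 genes tested (0% called, edgeR). DESeq2 called 4 genes, and 269 genes had an unadjusted p under 0.05 in edgeR. Apoe and Lpl were the 2 of the 9 under it. Apoe was 12618 and 9514 CPM in germ-free and 6831 and 7456 CPM in SPF colon (0.69 ± 0.27, log2, SE, adjusted p = 0.998). Lpl was 96.3 and 104 against 76.9 and 51.9 CPM (0.69 ± 0.30, adjusted p = 0.998). Trem2 (53.3 and 44.1 against 30.4 and 20.4 CPM), Cd36 (112 and 92.0 against 63.6 and 65.2 CPM) and Lipa (145 and 189 against 116 and 127 CPM) were also higher in both germ-free libraries. Pltp (229 and 259 against 302 and 318 CPM) was lower, and none of these genes passed the test. With 2 libraries a group such separation says little, and its share over all genes was not counted. The 9 monocyte markers summed to 420 and 365 CPM in macrophage-like cells of germ-free colon against 1858 and 560 CPM in SPF colon, and their part in these levels was not tested.

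Fabp5 and Gpnmb differed more between the 2 germ-free libraries than between the groups. Fabp5 was 22.3 and 246 CPM in germ-free colon and 87.1 and 98.8 CPM in SPF colon. Gpnmb was 31.0 and 144 CPM in germ-free and 38.1 and 115 CPM in SPF colon.

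In macrophage-like cells of small intestine against SPF colon, again none of the 9 genes and none of 8517 genes passed (0% called, edgeR), while DESeq2 called 49 genes and 691 had an unadjusted p under 0.05. Lpl was 20.6 and 29.7 CPM in small intestine against 76.9 and 51.9 CPM in SPF colon (-1.39 ± 0.31, log2, SE, adjusted p = 0.244), and Pltp was 153 and 185 against 302 and 318 CPM (-0.93 ± 0.26, adjusted p = 0.392). Gpnmb was 25.0 and 18.9 against 38.1 and 115 CPM (-1.86 ± 0.71, adjusted p = 0.564), and this difference was -0.84 without SPF colon replicate 2 and -2.52 without SPF colon replicate 1. Fabp5 was 24.4 and 35.5 against 87.1 and 98.8 CPM (-1.66 ± 0.79, adjusted p = 0.633). With 2 libraries a group, separated values like these say little, and their share over all genes was not counted. With no filter on low counts, 3 of the 9 genes passed, Lpl (adjusted p = 0.00527), Gpnmb (4.0e-05) and Fabp5, all lower in small intestine, where this setting called 133 of 16438 genes higher and 169 lower. In macrophage-like cells of small intestine against SPF colon, 6 fibroblast markers summed to 5.00 and 6.76 against 18.5 and 19.4 CPM, 8 neutrophil markers to 1408 and 826 against 547 and 487 CPM, and 7 plasma cell markers to 1269 and 392 against 303 and 354 CPM. Their part in the result was not tested.

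In monocyte-like cells 8 of the 9 genes could be tested, Trem2 being below the filter on low counts, and none passed in either comparison (0% of 4901 genes called in germ-free and 0.102% in small intestine). These libraries held few monocyte-like cells, 18 and 61 in germ-free colon and 33 and 29 in small intestine. Lpl was 654 and 143 CPM in germ-free against 120 and 38.6 CPM in SPF colon, and 10.0 and 541 CPM in small intestine. Cd36 was 5.01 and 283 CPM in small intestine. The 29 monocyte-like cells of the second small intestine library were thus high in both Lpl and Cd36. For the 33 of the first, both values were below those of the second, but they rest on very few UMIs and their exact level is uncertain.

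The difference between sites was also compared between the classes (macrophage-like minus monocyte-like, small intestine minus SPF colon). None of the 9 genes passed, where 0.0900% of 8884 genes were higher and 0.124% lower (0.214% in either direction). Lpl had a difference of -2.73 ± 0.80 (log2, SE, adjusted p = 0.278), which turned to 1.28 without small intestine replicate 2 (adjusted p = 0.689) and passed without any 1 of the other libraries. Gpnmb had a difference of -2.05 ± 0.55 (adjusted p = 0.202). None of the 8 pathway lists held a called gene in the germ-free or small intestine comparisons of either class.

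**Figure D4:**
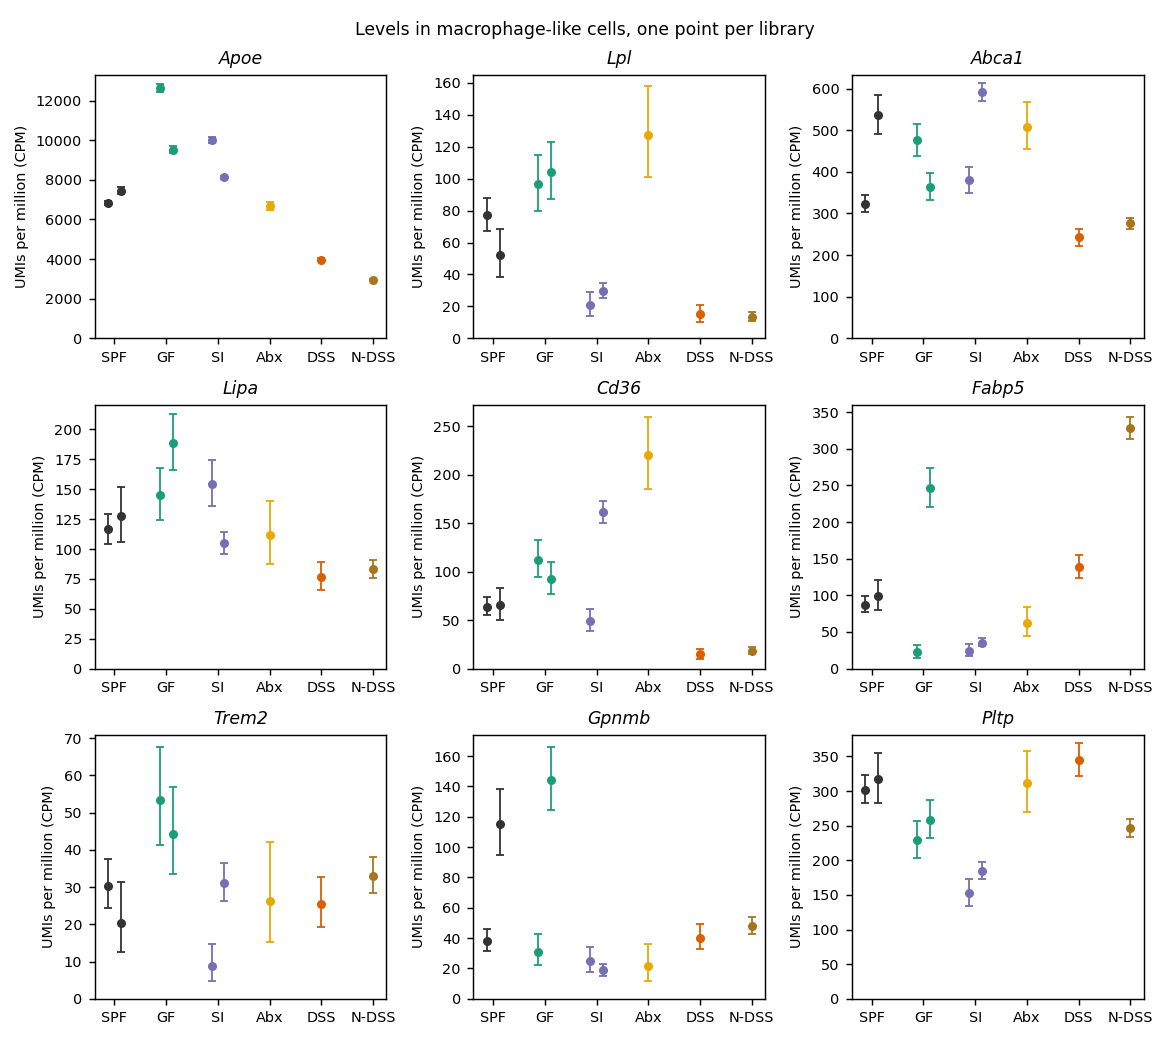
Level of each gene in macrophage-like cells (CPM), 1 point per library with its 95% Poisson interval, by group (SPF, SPF colon; GF, germ-free colon; SI, small intestine; Abx, antibiotic colon; DSS, DSS colon; N-DSS, DSS colon of mice labelled Nlrc4 deficient). Apoe, Lpl and Cd36 are lowest in the DSS libraries, apart from the points of Lpl in small intestine close above them, and Fabp5 and Gpnmb spread widely within germ-free colon.

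Antibiotic treatment, DSS and Nlrc4 deficiency with DSS had 1 library each, so that there is no test, and their levels are given beside the 2 SPF colon libraries. The intervals are 95% Poisson intervals and cover counting error only, and a level is called past a fold of 2 on CPM + 5 against the SPF colon mean. In macrophage-like cells of antibiotic colon, 1 gene was past it upwards and 1 downwards, where 1.38% of 5883 genes were higher and 1.53% lower. Cd36 stood at 220 CPM (185 to 259) against 63.6 and 65.2 CPM, 3.24-fold on CPM + 5. Gpnmb stood at 21.7 CPM (11.9 to 36.4) against 38.1 and 115 CPM. Lpl was 127 CPM (101 to 158) against 76.9 and 51.9 CPM, short of a fold of 2 but past it with the stricter gate (2.16-fold).

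In monocyte-like cells of antibiotic colon, Lpl (232 CPM, 198 to 271, against 120 and 38.6 CPM) and Cd36 (73.0 CPM, 54.4 to 96.0, against 25.5 and 31.8 CPM) were past the fold upwards, where 0.674% of 5636 genes were higher and 1.92% lower. These values depended on the gate. With a stricter gate they fell to 46.2 CPM for Lpl and 34.0 CPM for Cd36, neither past the fold, and Pltp was past it downwards (31.6 against 114 and 28.6 CPM).

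In macrophage-like cells of DSS colon, 2 of the 9 genes were past the fold, both downwards, where 2.75% of 5958 genes were higher and 2.94% lower. Lpl stood at 15.04 CPM (10.5 to 20.9) against 76.9 and 51.9 CPM, and Cd36 at 14.6 CPM (10.1 to 20.4) against 63.6 and 65.2 CPM. Apoe, at 3967 CPM (3887 to 4049) against 6831 and 7456 CPM, was below both SPF libraries but short of a fold of 2, as were Abca1 (242 against 323 and 536 CPM) and Lipa (76.9 against 116 and 127 CPM). Pltp, at 345 CPM against 302 and 318 CPM, was the 1 export gene above them. With a stricter filter on cells (at most 10% mitochondrial UMIs, at least 500 genes), Gpnmb was also past the fold downwards, at 26.4 against 39.0 and 116 CPM.

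The library labelled Nlrc4 deficient, also given DSS, had 4 of the 9 genes past the fold in macrophage-like cells, 3 downwards and 1 upwards, where 8.11% of 5783 genes were lower and 3.37% higher. Apoe stood at 2969 CPM (2924 to 3014), Lpl at 13.4 CPM (10.6 to 16.7) and Cd36 at 17.9 CPM (14.6 to 21.7), near the values of the other DSS library for Lpl and Cd36. Fabp5 was higher, at 328 CPM (314 to 344) against 87.1 and 98.8 CPM in SPF colon and 139 CPM with DSS alone. Deficiency and library cannot be told apart here.

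Monocyte-like cells of both DSS libraries also had low Lpl and Cd36. Lpl was 23.4 CPM (18.6 to 29.0) with DSS and 8.68 CPM (7.31 to 10.2) in the library labelled Nlrc4 deficient, against 120 and 38.6 CPM in SPF colon. Cd36 was 3.10 CPM (1.55 to 5.55) and 8.98 CPM (7.59 to 10.6), against 25.5 and 31.8 CPM. Gpnmb with DSS (7.05 against 15.1 and 40.5 CPM in SPF colon) completed the 3 genes past the fold. In the library labelled Nlrc4 deficient, Pltp (26.1 against 118 and 33.0 CPM) downwards and Fabp5 (282 against 83.3 and 174 CPM) upwards completed the 4. With the stricter gate, Gpnmb with DSS (9.48 CPM) was past the fold but within the SPF colon range (8.33 to 46.8 CPM). Pltp with DSS was then past it downwards too (28.9 against 114 and 28.6 CPM). Of all genes, 3.08% of 5657 were higher and 2.14% lower with DSS, and 2.82% of 5533 higher and 7.01% lower in the library labelled Nlrc4 deficient.

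Monocyte markers were higher in both DSS libraries than in SPF colon, whose 2 libraries also differed from each other. In macrophage-like cells the 9 monocyte markers summed to 2589 CPM with DSS and 2290 CPM in the library labelled Nlrc4 deficient, against 1858 and 560 CPM in SPF colon, none was at 0 in these 4 libraries, and their part in the result was not tested. With the stricter gate, the log2 ratio to the SPF colon mean was -0.63 for Apoe with DSS and -1.04 in the library labelled Nlrc4 deficient, in place of -0.85 and -1.27. For Lpl it was -1.60 and -1.63, and for Cd36 -1.84 and -1.43, so both stayed past the fold. In monocyte-like cells the stricter gate left Lpl past the fold in both libraries and Cd36 in the DSS library, but not in the library labelled Nlrc4 deficient (-0.95).

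**Figure D5:**
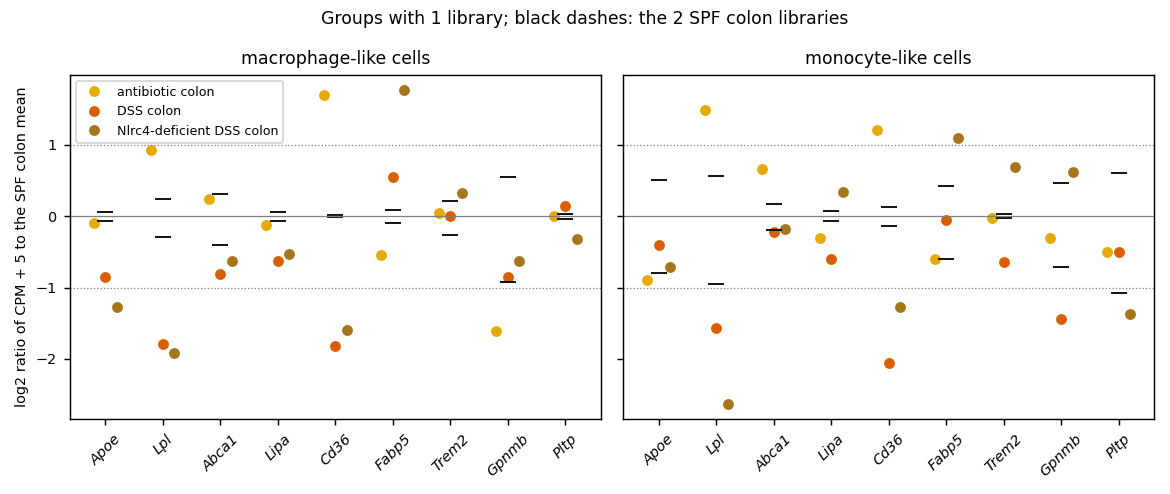
Log2 ratio of CPM + 5 to the mean of the 2 SPF colon libraries for each gene in the groups with 1 library, in macrophage-like (left) and monocyte-like cells (right); black dashes are the SPF colon libraries themselves and dotted lines a fold of 2. Cd36 and Lpl lie above the SPF colon libraries with antibiotics and below them in both DSS libraries in both classes, and Fabp5 is past the fold in the library labelled Nlrc4 deficient.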

How the data were processed

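CD11b+ intestinal cells were measured in 9 libraries. The deposited values are raw UMI counts per gene and cell, which the authors made with Cell Ranger (3.0.2 in the file headers) from reads aligned to mm10 (STAR 2.5.1b in the submitters' processing notes). No gene was filtered. The study's methods describe colon cells sorted from pooled mice and do not cover every group here.

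Cells with over 15% mitochondrial UMIs or under 200 genes were left out. A cell took the class with the highest mean z-score of its markers (at least 0.3, a lead of 0.25 and 2 markers detected). No doublet caller was run, and 2683 cells with markers of 2 classes stayed unassigned. Intervals cover counting error only. For a count of 0, 3 UMIs were taken as a floor, which is not the upper end of these intervals.

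Counts summed per library and class were tested with edgeR 4.0.16 in R 4.3.3 by the quasi-likelihood test after TMM scaling and filterByExpr, at an adjusted p of 0.05 (Benjamini-Hochberg, all genes). Comparisons between classes had a term for the library, and those between groups took SPF colon, germ-free colon and small intestine in 1 fit. Class comparisons needed 20 cells a side and group comparisons 10. Standard errors come from the quasi-likelihood F. CPM divides UMIs by the unadjusted class total. The scripts were tested on simulated data. DESeq2 1.42.0, no filter on low counts, a stricter filter on cells (10% mitochondrial UMIs, 500 genes), a stricter gate (lead 0.75, 3 markers), other blocks, other pseudocounts and each library left out were the alternatives.

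The 9 genes are named throughout. From 8 pathway lists (94 genes, 93 in the files), up to 3 called genes with the smallest p are named per list (2 of these are not reported here), and per gene the 3 most like it among genes that reach 50 CPM and are neither class markers nor among the 9. The genes and lists were chosen with earlier results of these data known.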

Additional observations from a re-analysis of the deposited data

How the results depend on the processing

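With 1 or 2 libraries per group and 18 to 61 monocyte-like cells in germ-free colon and small intestine, group differences in these genes are limited by the number of libraries. Of the 9 genes, 6 were called between macrophage-like and monocyte-like cells, and 4 to 7 under the alternatives, the 7th being Lpl, lower, with no filter on low counts (5 or 6 with each library left out). All 9 were called against dendritic-like cells, and 8 or 9 under the alternatives. Over all genes, macrophage-like against monocyte-like calls fell from 2461 to 1234 without the library block and 1487 with only the groups of 2 libraries, and ranged from 1999 to 2440 with each library left out. For cells with against without Cd163, Folr2 or Lyve1, the call among the 9 genes went from 1 to 0 without the library block, and all calls from 564 to 83 in DESeq2, 260 with the stricter gate and 32 without the block.

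Calls over all genes in macrophage-like cells went from 0 to 4 (germ-free) and 49 (small intestine) in DESeq2, to 78 and 302 with no filter on low counts (3 of the 9 genes in small intestine), to 10 in small intestine with the replicate block, to 5 with only the 2 groups compared, and to 0 to 1 and 0 to 10 with 1 library left out. In monocyte-like cells they went from 0 to 1 in DESeq2 and 0 to 2 with 1 library left out (germ-free), and from 5 to 9 in DESeq2, 0 with no filter and 3 to 8 with 1 library left out (small intestine). For the difference between sites across classes, calls went from 19 to 114 with no filter (1 of the 9 genes), 9 with the stricter gate, and 37 to 147 with 1 library left out (0 to 2 of the 9). The cause of these shifts was not tested. The replicate number was the same in different groups, but the deviations of same-numbered libraries correlated at -0.09 to 0.20 (macrophage-like) and 0.04 to 0.37 (monocyte-like) with 2 numbers only, so they were not treated as pairs, and the replicate block called none of the 9 genes. None of the 90 neighbour steps passed under any pseudocount or the stricter gate. In monocyte-like cells of antibiotic colon, 1 gene in place of 2 was past the fold with the stricter gate, and it was Pltp, downwards, in place of Lpl and Cd36, upwards.

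Signs turned for Fabp5 between macrophage-like and monocyte-like cells with the stricter gate (0.20) and without libraries under 50 monocyte-like cells (0.012, chosen after seeing the data), and for Trem2 without the block (-0.020), without DSS colon (-0.06) and without germ-free colon replicate 2 (-0.084, the lowest of a range that reached 0.231 with other libraries left out). They also turned for Fabp5 with 10 cells a side in the split by Cd163, Folr2 and Lyve1 (0.082, chosen after seeing the data) and for Lpl between sites and classes without small intestine replicate 2 (1.28, the highest of a range from -3.92). Leaving out a library in that split, and the stricter gate in monocyte-like cells between groups, could not be fitted for want of residual degrees of freedom or of cells.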
